A study of Mus musculus with 21 samples.

Results

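Replication-dependent histone genes are the source of the H1, H2A, H2B, H3 and H4 proteins that package newly made DNA, and their mRNAs were followed here in sorted peritoneal B cells of TET2-KO and WT mice. Members were the protein-coding genes whose GENCODE symbol begins with H2ac, H2bc, H3c or H4c, or is one of the H1f1 to H1f5 or H1-1 to H1-5 series. The rule found 67 of the 56953 genes in the files, comprising 5 H1, 18 H2A, 19 H2B, 12 H3 and 13 H4 genes, and it used no measured value. On GRCm39, 53 of them lie on chromosome 13, 10 on chromosome 3, 3 on chromosome 11 and 1 on chromosome 6. A further 2 genes that match the symbol pattern are pseudogenes and were left out.

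Histone mRNAs of this kind are made almost wholly in S phase, when the cell copies its DNA and needs new nucleosomes. They are the main animal mRNAs that end without a poly(A) tail: a short stem-loop near the 3′ end is bound by SLBP, the U7 particle directs a cut just after it, and the mature mRNA stops there. Several of these genes can also give a longer, polyadenylated transcript that reads past the stem-loop, and such forms have been described in cells that have left the cycle. A library that selects RNA by its poly(A) tail would capture the longer form and miss the usual one. Replication-independent variants such as H3.3, H2A.Z and H1.0 are made throughout the cycle from ordinary polyadenylated mRNAs.

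Bulk RNA-seq was done on 21 libraries of B cells sorted from the peritoneal cavity of C57BL/6 mice, in which the B-1 subsets make natural antibody and B-2 cells are the conventional follicular-type subset. The TET2-KO mice carry a germline loss of Tet2 derived from a conditional allele without exons 8 to 10, which encode part of the catalytic region of this 5-methylcytosine dioxygenase, so that every cell type of the animal lacks it. WT mice were the controls. B-1a cells were sorted as CD5+ cells low for B220, for CD23 and for IgD, and B-1b cells likewise but CD5-. The study calls the mice young, and neither an exact age nor the B-2 gate was given in the sources used here. B-1a cells gave 4 libraries of each genotype, B-1b cells 4 of WT mice and 3 of TET2-KO mice, and B-2 cells 2 of WT mice and 4 of TET2-KO mice. The sources differ on the RNA selection: the methods describe full-length cDNA made from total RNA and amplified by PCR, whereas the sample labels describe poly-T beads.

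Total counts ran from 9667187 to 24152518 per library with a median of 17425219. Tet2 counts, taken over the whole gene and therefore no check of a 3-exon deletion, ran from 8.46 to 27.2 counts per 1000000 counts of the scaled library (CPM) in the WT libraries and from 12.6 to 30.3 CPM in the TET2-KO libraries. The B cell markers Cd79a and Cd79b, which encode the signalling chains of the B cell receptor, were present in every library, at 5122 to 14498 and 3613 to 7300.2 CPM. All 9 macrophage markers were present in every library as well, with sums of 4365 to 29776 CPM, and Lyz2 alone ranged from 3830 to 27216 CPM. The 5 libraries labelled WT 1 or WT 2 stood apart. A sum of the B-2 genes Cr2, Fcer2a and Ighd was 2419 to 4305 CPM in the TET2-KO B-2 libraries and 379 to 665 CPM in the TET2-KO B-1 libraries, but it was 4291 CPM in the library labelled WT B-1a 1, 3234 CPM in WT B-1b 2 and 393 CPM in WT B-2 1, which goes against those labels. The summed level of 1193 olfactory receptor genes, which B cells are not known to use, was 6.61 to 12.6 CPM in these 5 libraries and 59.8 to 1267 CPM in the other 16. Cd5, the antigen that separates B-1a from B-1b in the sort, was at 15.9 to 21.1 CPM in the TET2-KO B-1a libraries and at 2.95 to 5.10 CPM in the TET2-KO B-1b libraries, but at 1.64 CPM in the library labelled WT B-1a 2 and at 18.7 CPM in WT B-1b 1. Values of the WT B-1a, WT B-1b and WT B-2 groups are by label. WT B-2 1, whose B-2 gene sum lay within the TET2-KO B-1 range, forms the WT B-2 group together with WT B-2 4. Summed levels, fold changes, medians of the tested members and the main correlations are given with and without the 5 libraries labelled WT 1 or WT 2. Without them the WT libraries are 3 and 4 in B-1a and in B-1b, and library 4 alone in B-2.

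A stem-loop motif was found in the genomic sequence of 61 of the 67 members, within the gene or up to 150 bases past it. The 16-base motif took 5 forms. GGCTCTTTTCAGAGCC occurred in 42 members and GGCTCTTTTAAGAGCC in 8. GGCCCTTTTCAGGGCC and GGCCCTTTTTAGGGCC occurred in 8 and 2 members, all of them H4 genes, and every H4 gene with a motif had one of these C-rich forms. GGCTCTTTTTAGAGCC occurred in a single H2A gene. The motif was not found in H2bc21, H4c11, H2ac22, H3c8, H4c2 and H4c1. Below are the stem-loops of the 3 members that head the per-kilobase ranking of levels, of H3c6, the H3 gene with the highest mean CPM, and of H2ac6, the neighbour of H2bc4, with 5 bases on either side in the direction of transcription and the motif in capitals.

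H2bc4, chr13:23868625-23868650, plus strand: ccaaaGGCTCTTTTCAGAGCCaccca

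H4c4, chr13:23765928-23765953, plus strand: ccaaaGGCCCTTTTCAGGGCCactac

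H1f2, chr13:23923490-23923515, plus strand: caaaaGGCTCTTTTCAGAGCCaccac

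H3c6, chr13:23746072-23746097, minus strand: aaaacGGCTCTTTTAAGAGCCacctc

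H2ac6, chr13:23867455-23867480, minus strand: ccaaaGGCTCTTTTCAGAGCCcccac

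The annotated exons of these 5 genes go on past the stem-loop. H2bc4 (chr13:23868182-23876891, 2 exon blocks, 1156 exon bases) has its stem-loop between the exon blocks, so that a transcript spliced as annotated would lack it, and 733 exon bases follow. H1f2 (chr13:23922791-23924350) has 840 exon bases after the stem-loop, H4c4 (chr13:23765581-23766718) has 770, H3c6 (chr13:23745708-23746543) has 369 and H2ac6 (chr13:23865450-23867931) has 2010. Per kilobase of exon H3c1 was the highest H3 gene, at 3.00 CPM against 2.30 for H3c6, and it has 37 exon bases after its stem-loop.

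Counts were concentrated on such genes. Of the 61 members with a motif, 24 had over 100 exon bases after the stem-loop, and they took 87.7 to 92.6% of the histone counts in each library. Long exons collect more fragments, so the same share was taken per kilobase of exon, where it was 74.3 to 86.7%. The median level of the 24 genes was 1.88 CPM per kilobase against 0.423 for the 37 genes with at most 100 such bases. Genes at 0 counts in every library enter these medians, 2 of the 24 and 6 of the 37. Among the 37 are genes whose annotated exons stop short of the stem-loop's end, such as H2bc26, H3c10 and H2ac15. Their 0 bases after it come from the annotation and are no measured end. Fragments that mapped to several places or overlapped several genes were not counted, which lowers some members more than others. The part of the annotation and of the counting in the difference was not tested. All of the 10 members with the highest mean CPM belonged to the long-ended set, and 9 of the 10 with the highest mean CPM per kilobase. A polyadenylation signal stood within 50 bases of the annotated end in 11 of the 24, H1f2 among them, and in 4 other members. None was found there in H2bc4, H1f4 or H4c4, which are also long-ended and among the highest genes. The fragments in these libraries are not given by position, so whether they fall before or after the stem-loop was not tested.

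**Figure D1:**
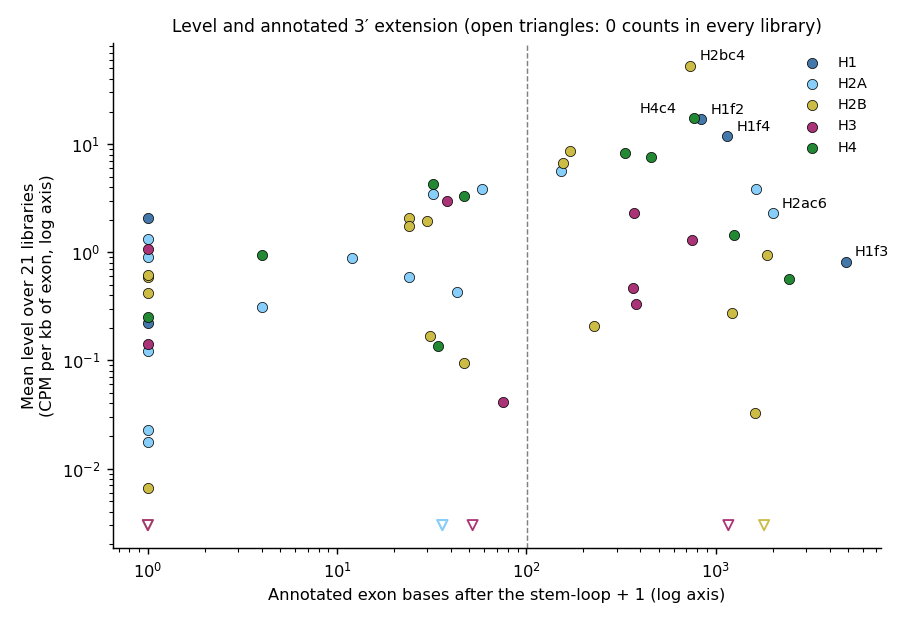
Mean level of each histone gene over the 21 libraries, in CPM per kilobase of exon (vertical, log axis), against the number of annotated exon bases after the stem-loop plus 1 (horizontal, log axis), with triangles for genes at 0 counts. Genes right of the dashed line at 100 bases have a median of 1.88 CPM per kilobase and those left of it 0.423, genes at 0 counts included. Genes at the left edge have annotated exons that stop short of the stem-loop's end.

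The summed level of the 67 genes was low beside that of the replication-independent variants. It ranged from 146 to 295 CPM with a median of 213 CPM, made of 2158 to 5363 counts per library. Between 31 and 52 members had at least 1 count in a library, and 16 to 34 had at least 10. In all 21 libraries, 25 members had a count, which together held 94.5% of the histone counts, and 40 members averaged under 10 counts per library. No count was seen for 8 members, namely H2bc24, H3c13, H2ac18, H2bc18, H2ac19, H3c14, H3c2 and H2ac1. Of these, 5 share every exon base with another annotated gene, and fragments over 2 genes were not counted by the authors, so 0 for them is no measurement. Near-identical coding sequence is a further limit. In 17 members under 50% of the 200-base windows of exon sequence occurred once in the genome, and these held 2.71% of the counts. H2bc24 is among them with no window that occurs once, so its 0 is uncertain too.

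Per kilobase of exon, the H2B genes had the highest and the H3 genes the lowest summed level of the 5 classes in each of the 21 libraries. The H2B sum was 57.8 to 139 CPM, the H4 sum 16.7 to 71.3 CPM, the H1 sum 20.6 to 49.1 CPM, the H2A sum 10.7 to 40.3 CPM and the H3 sum 1.37 to 14.6 CPM, all per kilobase. This ranking is of counted fragments, and the counting rule does not touch the classes evenly. Among H3 genes, 28.3% (H3c10) to 95.4% (H3c3) of exon windows occurred once in the genome. H3c13 and H3c14 share every exon base with another gene. Every window of the H1 genes occurred once, whereas H2ac23 and H2bc23 had 0.0%. The part of this in the ranking was not tested. Over all libraries the H2B genes held 39.9% of the histone counts. The 4 highest genes held 50.3 to 74.4% of all histone counts.

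H2bc4, a core H2B gene, had the highest mean at 61.4 CPM (53.1 CPM per kilobase). H1f2, H1f4 and H4c4 followed with 26.6, 22.8 and 19.7 CPM, which per kilobase are 17.1, 11.8 and 17.3. H1f2 and H1f4 encode linker histones, which bind the DNA between nucleosomes. The next 6 were the H2A gene H2ac25 at 8.27 CPM, H4c3 at 6.23, the linker gene H1f3 at 6.06, H4c9 at 6.00, H2ac6 at 5.71 and the H2B gene H2bc27 at 5.33 CPM. The highest H3 gene by CPM was H3c6 at 1.92. H1f4 shares 25.7% of its exon bases with H2bc6 and another gene, and fragments that touched both genes were not counted.

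**Figure D2:**
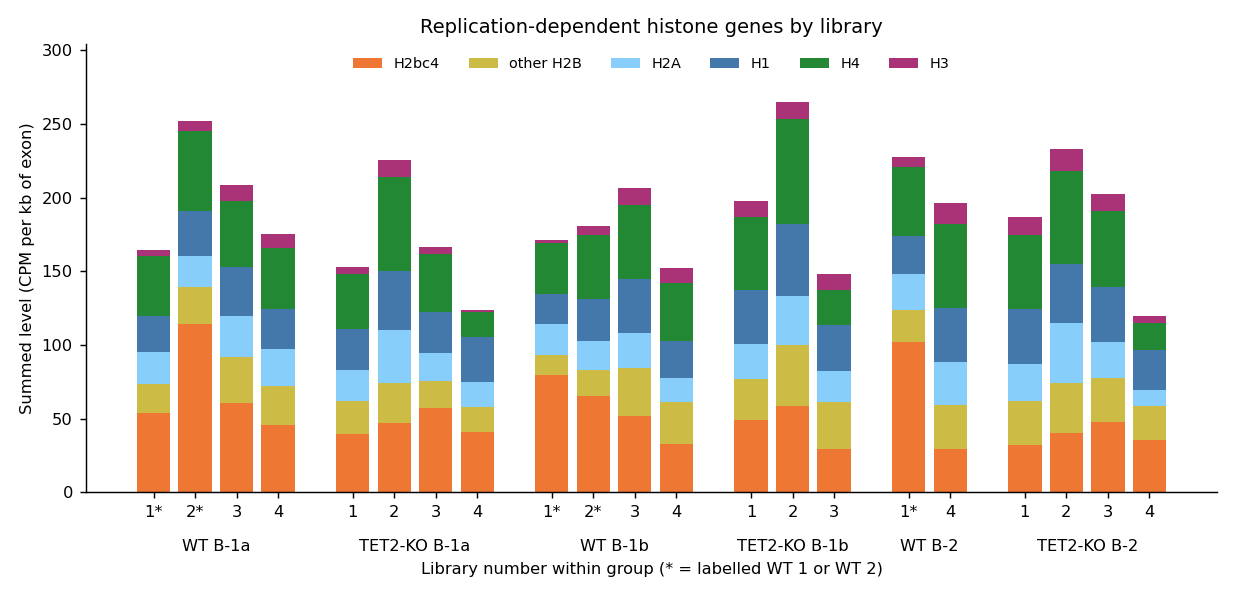
Summed level of the histone genes in each of the 21 libraries in CPM per kilobase of exon, stacked by class with H2bc4 drawn apart from the other H2B genes. H2B genes, led by H2bc4, form the largest block and H3 genes the smallest, with fragments that mapped to several places not counted.

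The 4 highest values of H2bc4 came from libraries labelled WT 1 or WT 2. In B-1a it measured 62.4, 132, 70.2 and 52.9 CPM in WT libraries 1 to 4 and 46.1, 54.1, 66.0 and 47.3 CPM in the TET2-KO libraries. In B-1b it measured 92.5, 75.5, 59.8 and 38.4 CPM in WT and 57.1, 67.5 and 34.2 CPM in TET2-KO. The B-2 values were 118 and 34.4 CPM in WT libraries 1 and 4, and 37.2, 46.9, 55.1 and 41.5 CPM in TET2-KO. WT and TET2-KO overlapped in every subset. H2bc4 took 34.9 to 47.9% of the histone counts in those 5 libraries and 15.8 to 34.1% in the other 16. The highest single share was 47.9% (95% Wilson interval 46.1 to 49.7%) and the lowest 15.8% (14.6 to 17.1%), intervals that cover counting error only, since PCR copies carry no molecular identifiers here. Across the 21 libraries H2bc4 and the olfactory receptor sum went with r = -0.77 (rho = -0.75), and across the 16 without WT 1 and WT 2 with r = -0.47 (rho = -0.56). Libraries from one mouse would not be independent points, and the part of either in the other was not tested.

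H2ac6 lies head to head with H2bc4, and the pair is 1 of 14 divergent pairs among the members, 13 of which join an H2A with an H2B gene. In 6 of the 13 the H2B gene had the higher level per kilobase. For H2ac6 and H2bc4 the means were 2.30 and 53.1 CPM per kilobase although only 250 bases separate their starts. The whole stretch between the annotated starts is printed as the plus strand of GRCm39 because both genes of the pair start at its edges and 1 of them has the highest level of all members. Its capitals mark matches on either strand to ATTTGCAT, an octamer, to the CCAAT box and to TATAAA, the core of a TATA box. The octamer (base 134) and 2 CCAAT boxes (bases 105 and 176) read on the plus strand. A CCAAT box at base 76 and the TATA box at base 38 read on the minus strand and so appear as reverse complements.

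H2ac6 and H2bc4, chr13:23867932-23868181: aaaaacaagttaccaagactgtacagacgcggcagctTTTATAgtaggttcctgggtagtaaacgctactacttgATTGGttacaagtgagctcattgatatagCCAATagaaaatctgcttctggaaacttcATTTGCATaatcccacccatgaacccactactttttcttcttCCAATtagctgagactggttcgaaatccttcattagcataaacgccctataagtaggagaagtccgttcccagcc

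Among 300-base RefSeq promoter windows (GRCm38.p6, 250 bases before to 50 after the start), 58 windows of 57 members were matched. CCAAT on either strand was in 86.2% of them and in 37.4% of all 32851 windows, TATAAA in 58.6 and 13.6%, and ATTTGCAT in 22.4 and 1.74%. The octamer was found in 46.7% of H2B and 35.3% of H2A windows and in no H1, H3 or H4 window. H4 windows held CCAAT in 27.3%, against all windows of the other 4 classes. Each motif was searched on its own, overlapping or not with another, and a match is a description of letters only.

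H2ac6 was low in the libraries labelled WT 1 or WT 2, where the highest H2bc4 values lay. It measured 1.07, 2.27, 9.71 and 8.27 CPM in WT B-1a, 0.648, 1.65, 6.73 and 4.35 CPM in WT B-1b, and 0.714 and 9.43 CPM in WT B-2. The libraries labelled WT 1 and WT 2 held the 5 lowest values of all 21. TET2-KO values were 3.09, 6.62, 3.00 and 3.02 CPM in B-1a, 5.85, 10.5 and 6.52 CPM in B-1b and 7.12, 17.0, 7.90 and 4.47 CPM in B-2. H2bc4 and H2ac6 went with r = -0.58 (rho = -0.42) over 21 libraries and with r = 0.08 (rho = 0.16) over the 16 without WT 1 and WT 2.

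H1f4 and H4c4 moved with each other. H1f4 measured 19.0, 20.6, 22.0 and 17.9 CPM in WT B-1a and 20.4, 32.6, 18.2 and 8.09 CPM in TET2-KO B-1a. In TET2-KO B-2 it measured 30.7, 31.3, 28.1 and 8.94 CPM. H4c4 in the same TET2-KO groups was at 19.6, 36.0, 22.1 and 3.53 CPM, and at 22.7, 23.4, 22.7 and 7.11 CPM. Both genes were lowest in the 2 libraries labelled TET2-KO 4, one of B-1a and one of B-2, and over 21 libraries their r was 0.87 (rho = 0.81), and 0.92 (rho = 0.90) over the 16 without WT 1 and WT 2. H1f2 did not follow them: its value in the library labelled TET2-KO B-1a 4 was 41.3 CPM, the highest of all. The same 2 libraries had the lowest macrophage marker sums, 4712 and 4365 CPM, and its part in the histone levels was not tested.

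**Figure D3:**
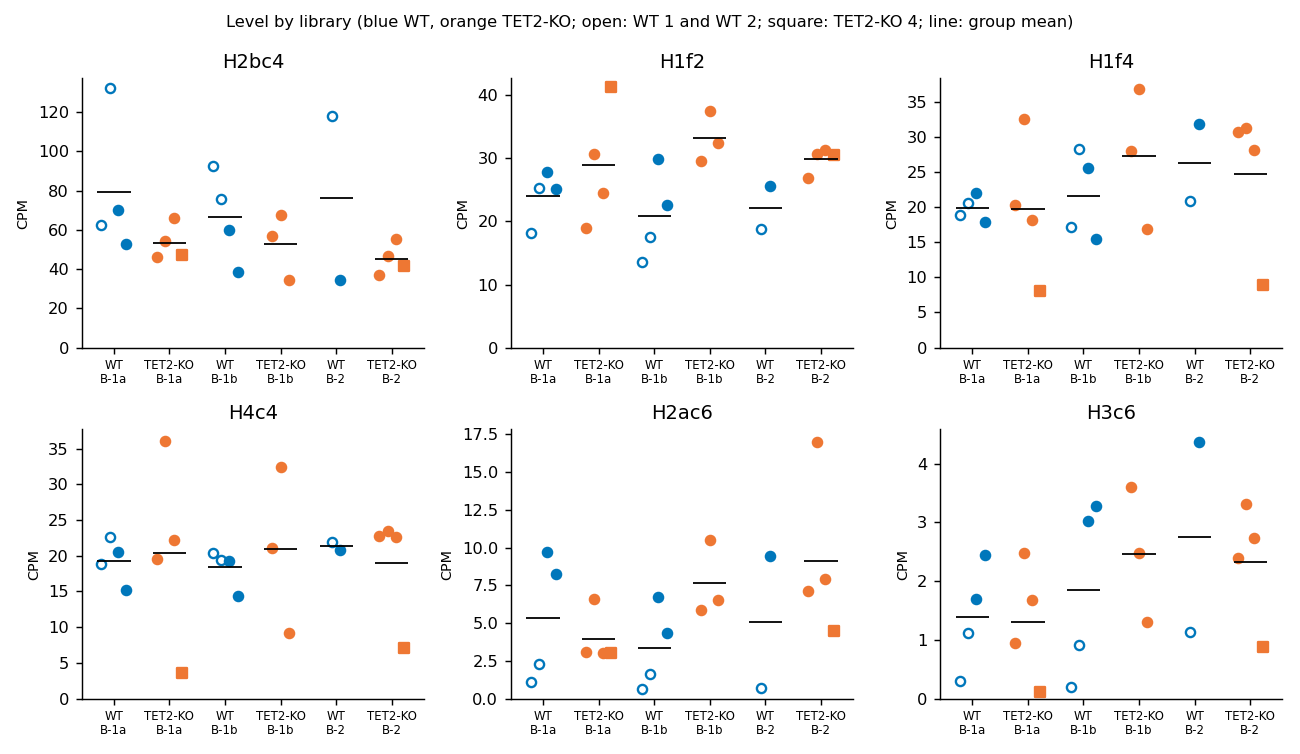
CPM of H2bc4, H1f2, H1f4, H4c4, H2ac6 and H3c6 in each library by subset and genotype, with open symbols for libraries labelled WT 1 or WT 2 and squares for TET2-KO 4. The 4 highest H2bc4 and the 5 lowest H2ac6 values are open symbols, and H1f4 and H4c4 are lowest in the squares.

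Genotype was compared within each subset to ask whether loss of TET2 goes with other histone mRNA levels. The summed level was 222 ± 46.9 CPM (SD, n = 4) in WT B-1a and 190 ± 43.2 CPM (n = 4) in TET2-KO B-1a. It was 198 ± 25.3 CPM (n = 4) and 228 ± 66.1 CPM (n = 3) in B-1b, and 234 ± 24.2 CPM (n = 2) and 212 ± 48.6 CPM (n = 4) in B-2. As log2 differences, TET2-KO minus WT, these were -0.23, 0.17 and -0.17, each smaller than the pooled SD of 0.31, 0.31 and 0.32. Without WT 1 and WT 2 they were -0.19, 0.18 and -0.07, the last with library 4 as the only WT library. As single libraries were left out, the B-1b difference ran from -0.04 to 0.39, so its sign was not stable. The B-2 difference ran from -0.23 to 0.04 under the other alternatives. The macrophage marker sum covered 11194 to 29776 CPM in WT B-1a and 4712 to 28457 CPM in TET2-KO B-1a, 12446 to 17326 and 6240 to 15081 CPM in B-1b, and 9460 to 25074 and 4365 to 19510 CPM in B-2. Its r with the summed histone level was 0.41 over 21 libraries and 0.65 over 16. In bulk samples fewer cells of a kind and less RNA per cell cannot be told apart.

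No histone gene passed an adjusted p of 0.05 by edgeR's quasi-likelihood test in any subset. In B-1a 28 members had enough counts to be tested, 0 were called and 0 had an unadjusted p under 0.05, beside 0.0503% of 13923 genes called. The median log2 fold change of the 28 was -0.12, with 11 above 0 and 17 below, against 0.02 over all genes. In B-1b 30 were tested, 0 called and 1 under the unadjusted threshold, beside 0.0% of 14368 genes called. Their median was 0.35, with 28 above 0 and 2 below, against -0.01 over all genes. B-2 gave 33 tested, 0 called and 0 under the unadjusted threshold, beside 0.0% of 19786 genes. The median there was -0.03, with 15 above 0 and 18 below, against 0.18 over all genes. Without WT 1 and WT 2 the medians of the members tested were -0.20, 0.28 and -0.06 in B-1a, B-1b and B-2. In that setting 0 were called in B-1a and in B-1b, and the B-2 fit held library 4 as its only WT library. DESeq2 also called 0 members in each subset and put 0, 2 and 1 under an unadjusted 0.05. The other members could not be fitted at this depth, and their genotype difference was not detectable.

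H1f2 was the member with an unadjusted p under 0.05 in B-1b. It measured 13.6, 17.5, 29.9 and 22.6 CPM in WT B-1b and 29.5, 37.6 and 32.5 CPM in TET2-KO B-1b, and the 2 groups overlapped through WT library 3. Its log2 fold change was 0.69 (SE 0.27, edgeR adjusted p = 0.838), and 0.35 without WT 1 and WT 2. In B-1a the log2 fold change was 0.30 (SE 0.25, edgeR adjusted p = 0.708) and in B-2 0.45 (SE 0.21, edgeR adjusted p = 0.531), or 0.14 and 0.24 without those libraries. H2bc4 had negative values, -0.53 (SE 0.27, edgeR adjusted p = 0.643) in B-1a, -0.30 (SE 0.30, edgeR adjusted p = 0.857) in B-1b and -0.73 (SE 0.41, edgeR adjusted p = 0.531) in B-2. Without WT 1 and WT 2 these were -0.20, 0.11 and 0.41, so that the sign of the B-1b and B-2 values turned. The B-2 value then sets WT library 4 alone against the TET2-KO libraries.

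WT and TET2-KO libraries did not overlap for 0 of 28 members in B-1a, 1 of 30 in B-1b and 4 of 33 in B-2, beside 5.55, 7.68 and 20.0% of all genes tested. The B-1b gene was H2bc8, which was higher in TET2-KO. In B-2 H1f2 and H4c8 were higher and H2ac23 and H2bc6 lower, with 2 WT libraries, of which library 1 went against its label. No 200-base window of H2ac23 occurs once in the genome, so its counts are uncertain. H2bc8, H4c8, H2ac23 and H2bc6 are named after their values were seen. The shares of members lie below those of all genes in each subset.

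Whether the genotype effect differed between B-1a and B-1b was tested as an interaction. Of 34 members tested, 0 were called and 0 had an unadjusted p under 0.05 by edgeR, beside 0.0% of 15972 genes called, and DESeq2 gave 0 and 4. The median of the 34 was -0.50 on the log2 scale, with 4 above 0 and 30 below, against 0.03 over all genes, and -0.41 for the 35 members tested without WT 1 and WT 2, of which 0 were called.

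**Figure D4:**
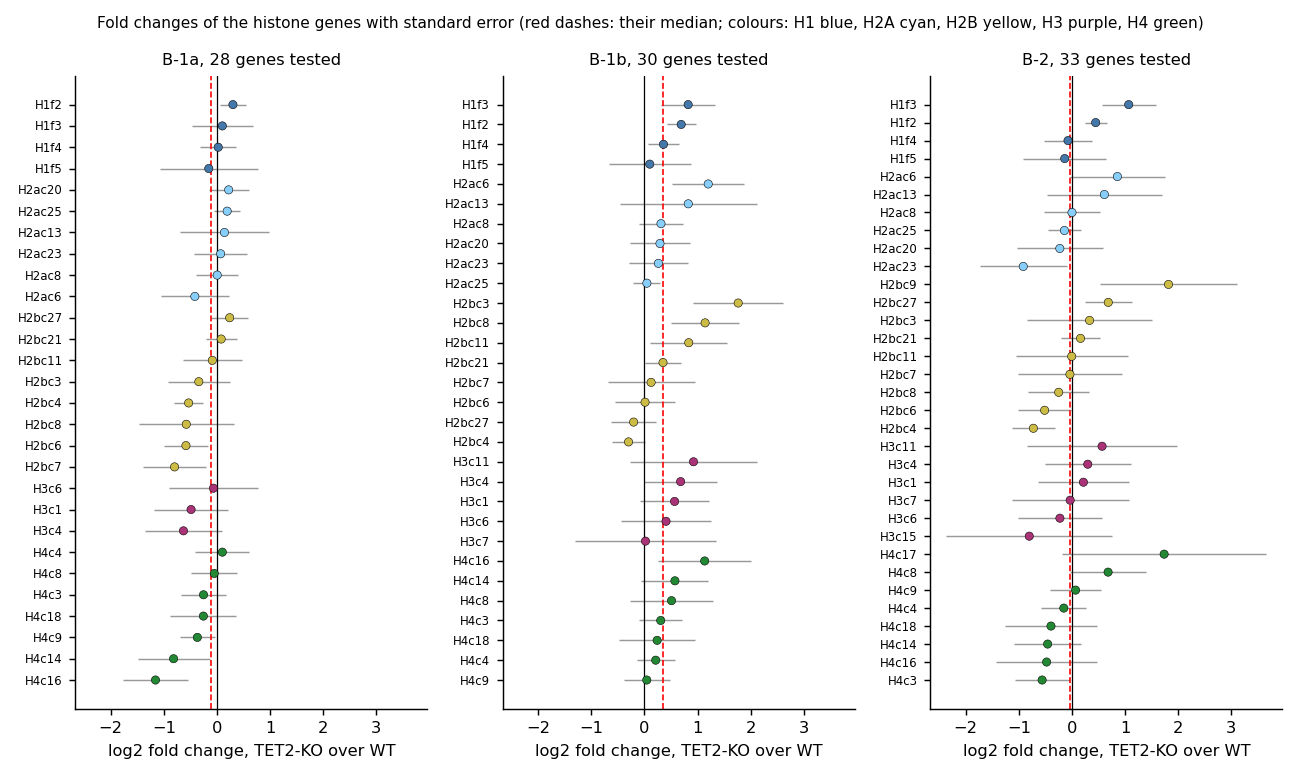
Log2 fold change, TET2-KO over WT, of each tested histone gene with its standard error in B-1a, B-1b and B-2, with the median of the members as a red dashed line. The medians are -0.12, 0.35 and -0.03, and no gene passed an adjusted p of 0.05.

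Mki67, a nuclear protein of cycling cells and a usual marker of them, was used as the reference for proliferation. It had 24 to 124 counts per library. Its level was 3.69, 3.59, 4.56 and 6.57 CPM in WT B-1a and 3.91, 2.16, 2.82 and 2.68 CPM in TET2-KO B-1a. In B-1b it was 4.21, 1.33, 2.61 and 5.25 CPM in WT and 3.49, 1.99 and 4.70 CPM in TET2-KO, and in B-2 2.74 and 3.28 CPM in WT and 4.19, 2.33, 1.29 and 3.79 CPM in TET2-KO. All 3 pairs of groups overlapped. The log2 fold changes were -0.64 (SE 0.33, edgeR adjusted p = 0.643), 0.05 (SE 0.55, edgeR adjusted p = 0.988) and -0.03 (SE 0.64, edgeR adjusted p = 0.982), and without WT 1 and WT 2 -0.94, -0.20 and -0.16.

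The summed histone level did not rise with Mki67. Over 21 libraries r was -0.39 and rho -0.51, on log2 values with 0.5 CPM added, and over the 16 without WT 1 and WT 2 they were -0.48 and -0.58. Within subsets r was -0.01 in the 8 B-1a libraries, -0.65 in the 7 B-1b libraries and -0.45 in the 6 B-2 libraries. Leaving out the 2 libraries farthest from the median of Mki67 gave -0.48, and leaving H2bc4 out of the sum gave -0.33. A list of 13 proliferation genes, Mki67 removed, went with Mki67 at r = 0.63 over the 21 libraries. The summed histone level and that whole list went at r = -0.35, and the sum and a list of 19 S phase genes at r = 0.07. These list values were taken with WT 1 and WT 2 included. No p is given for these values, since some libraries may share a mouse.

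**Figure D5:**
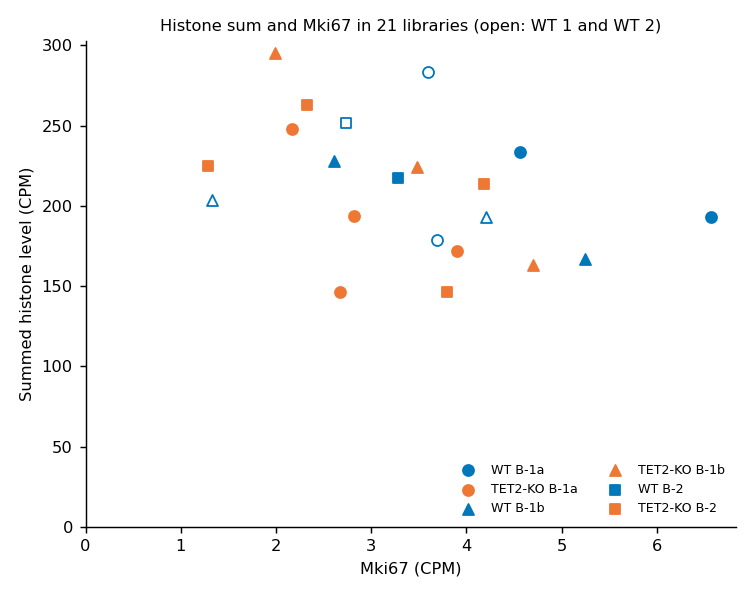
Summed level of the histone genes in CPM against Mki67 in CPM, 1 point per library by subset and genotype. The points show no upward trend, with r = -0.39 over the 21 libraries.

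Lists of genes around the histones were read in the same way. By edgeR 0 genes of these lists passed in any genotype comparison, nor in the interaction. The lists were proliferation (13 tested), S phase (19) and histone chaperone (14). The others were histone mRNA synthesis and processing (16, or 17 in the interaction) and variants (9, or 10 in B-2). Medians of the proliferation list were -0.51, -0.58 and 0.07 and of the S phase list -0.42, -0.31 and -0.31 in B-1a, B-1b and B-2. Over all genes they were 0.02, -0.01 and 0.18. All these medians include the libraries labelled WT 1 or WT 2. The machinery that makes and ends the histone mRNAs was present: Slbp, whose product binds the stem-loop, at 61.0 to 156 CPM, Npat, the activator of histone transcription, at 6.44 to 18.3 CPM, Casp8ap2 at 24.3 to 35.4 CPM, the U7 proteins Lsm10 and Lsm11 at 30.1 to 69.2 and 3.57 to 11.3 CPM, and the nuclease Eri1 at 27.7 to 69.9 CPM. Zfp473, which acts in the cut, was at 0 in 1 library and at most 3.06 CPM.

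Subsets were compared among the TET2-KO libraries, where each subset had at least 3. Of 32 members tested between B-1a and B-2, 0 passed by edgeR and 2 had an unadjusted p under 0.05, beside 5.82% of 18555 genes called, and DESeq2 called 1 (H2ac6) with 3 under the unadjusted threshold. The median of the members was -0.48 on the log2 scale, with 7 above 0 and 25 below, against -0.05 over all genes. H2ac6 had a log2 fold change of -1.24 (SE 0.44, edgeR adjusted p = 0.103) and H1f3 one of -1.32 (SE 0.58, edgeR adjusted p = 0.175). With the replicate number as a block H2ac6 passed (edgeR adjusted p = 0.0209). The olfactory receptor sum was 59.8 to 281 CPM in the TET2-KO B-1a libraries and 252 to 1267 CPM in the TET2-KO B-2 libraries, and over 21 libraries its r was 0.82 with H2ac6 and 0.66 with H1f3 (rho = 0.61 and 0.73). Over the 16 without WT 1 and WT 2 it was 0.33 with H2ac6 and 0.75 with H1f3 (rho = 0.14 and 0.56). Its part in these values was not tested. Between B-1b and B-2 0 of 32 passed and 0 had an unadjusted p under 0.05, beside 2.15% of genes called, with a median of 0.00. Between B-1a and B-1b 0 of 32 passed and 0 were under the unadjusted threshold, beside 0.205%, with a median of -0.33; with the replicate number as a block, which pairs these libraries, 0 members and 103 in place of 38 of all genes were called. DESeq2 gave 0 calls in both, with 0 and 3 under the unadjusted threshold. Libraries did not overlap for 0, 1 and 2 members in these 3 comparisons, beside 19.0, 19.3 and 6.05% of all genes. They were H2bc8, higher in B-1b than in B-2 and in B-1a, and H2bc11, higher in B-1b than in B-1a, and both are named after their values were seen.

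Some replication-independent variants differed between TET2-KO subsets. Of 10 tested, 2 were higher in B-1a than in B-2, 1 was higher in B-1b than in B-2 and 0 differed between B-1a and B-1b, beside 5.82, 2.15 and 0.205% of all genes. H1f0, the linker histone of resting cells, measured 23.4, 26.3, 22.7 and 28.4 CPM in B-1a and 12.03, 10.2, 9.14 and 6.84 CPM in B-2, a log2 fold change of 1.37 (SE 0.21, edgeR adjusted p = 0.000695). H2az1, which encodes H2A.Z, measured 514, 497, 348 and 558 CPM against 233, 188, 215 and 159 CPM, a log2 fold change of 1.24 (SE 0.21, edgeR adjusted p = 0.00201). The groups did not overlap for either gene. H1f0 was also higher in B-1b than in B-2, by 0.99 (SE 0.22, edgeR adjusted p = 0.0265), in a comparison that shares the B-2 libraries. That call was lost without any of 5 of the 11 libraries, namely TET2-KO B-1b 1 and 2 and TET2-KO B-2 2, 3 and 4 (edgeR adjusted p up to 0.109). Whether variants and replication-dependent genes differed in their change was not tested.

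Of 19 S phase genes, 1 was called higher and 1 lower in B-1a than in B-2, and 1 higher in B-1b than in B-2. Ccne1, the cyclin of the G1 to S transition, was higher in B-1a than in B-2 by 1.49 (SE 0.20, edgeR adjusted p = 0.000233) and in B-1b than in B-2 by 1.31 (SE 0.21, edgeR adjusted p = 0.00256). Cdt1, which licenses replication origins, was lower in B-1a than in B-2 by 0.99, a log2 fold change of -0.99 (SE 0.19, edgeR adjusted p = 0.00385). Of 14 chaperones, 1 was called lower and 1 higher in B-1a than in B-2. Nasp, which carries H1 and H3-H4, had -0.76 (SE 0.18, edgeR adjusted p = 0.0177) and Nap1l1, a carrier of H2A-H2B, 0.72 (SE 0.20, edgeR adjusted p = 0.0429). No gene of the proliferation (13) or the processing list (17) passed in any of the 3 subset comparisons. Of all genes 5.82, 2.15 and 0.205% passed there, so 0 in lists of this size says little. In a fit of subset and genotype to all 21 libraries, which takes in WT 1 and WT 2, the edgeR adjusted p of these 6 genes ranged from 0.0677 to 0.120 between B-1a and B-2, and between B-1b and B-2 it was 0.181 for Ccne1 and 0.203 for H1f0. Nap1l1 lost its call without any of 9 of the 11 TET2-KO libraries (edgeR adjusted p up to 0.166).

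Against the variants the replication-dependent genes were a small share. Per kilobase, the variants summed to 6.66 to 14.2 times the 67 genes. H3f3a and H3f3b, both of which encode H3.3, reached 814 to 1964 CPM per kilobase and were 77.7 to 848 times the H3 members as counted. No H3 member had all its exon windows unique in the genome, and H3c13 and H3c14 share every exon base with another gene. Fragments lost in this way lower the H3 sum, and their part in these ratios was not tested. Mki67 lay at 0.128 to 0.653 CPM per kilobase. Other RNAs that lack a poly(A) tail were scarce in the same libraries. Of 19 gene identifiers for 16 such RNAs, 9 had 0 counts in every library and 3 were above 0 in every library, and the list summed to 1.62 to 27.5 CPM. Rmrp was at 0 throughout under each of its identifiers. Rpph1 was at most 0.159 CPM. Rn7sk, the 7SK RNA that restrains transcription elongation, ranged from 0.648 to 26.9 CPM with the highest value in TET2-KO B-1b 3. Fragments that mapped to several places or overlapped several genes were not counted, so a 0 here can be no measurement. Short RNAs are also lost when fragments are selected by size, and RNA selection, transcript length, the counting rule and expression cannot be told apart here.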

How the data were processed

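Counts were deposited as 1 table per library. Per the file headers and the labels, the authors used fastp for trimming, STAR for alignment to GRCm39 and featureCounts 1.6.1 for unstranded fragment counts over the exons of each GENCODE vM32 gene; fragments that mapped to several places or overlapped several genes were not counted. Symbols came from GENCODE vM39 and were found for 56310 of 56953 identifiers. Members and gene lists were chosen with earlier results of these data known.

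The counts were analysed with edgeR 4.0.16 in R 4.3.3 (TMM scaling, filterByExpr by group, robust quasi-likelihood fit), with Benjamini-Hochberg adjustment over all genes tested and a threshold of 0.05. Each genotype comparison was fitted to the libraries of its subset, the interaction to the B-1a and B-1b libraries, and the subset comparisons to the 11 TET2-KO libraries. SE was the absolute log2 fold change over the root of the F statistic. CPM are counts per 1000000 of the TMM-scaled library size over all 21 libraries. Total counts of 9667187 to 24152518 set the precision, and intervals cover counting error only. Which libraries came from separate mice is only partly given, so p-values measure the spread between these libraries. None of 210 library pairs held identical counts. The fit was tested on simulated data. DESeq2 1.42.0, other scalings and filters, left-out libraries and a replicate block were the alternatives. Same-numbered TET2-KO B-1a and B-1b libraries deviated together (r = 0.17 to 0.32 over 3 pairs), so the block is given for that comparison. It is also given for H2ac6 between B-1a and B-2, where same-numbered libraries correlated less evenly (r = 0.0846 to 0.501 over 4 pairs).

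The genes named are Mki67, the 10 members with the highest mean CPM, the highest member of each class, members past the threshold (at most 10 per comparison), a preset set of variant, processing and non-polyadenylated genes, and at most 5 called genes per list and comparison. Stem-loops were searched in GRCm39 as the 16-base histone consensus, with any base allowed at 3 of its positions, within each gene and 150 bases past it. Promoter windows came from RefSeq (GRCm38.p6). One marker of the sort is not reported here.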

Additional observations from a re-analysis of the deposited data

Results flagged for a closer look

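Among 52 groups of 4 libraries of the named histone genes, 5 held a library far from the other 3, in the sense that its gap to the nearest other exceeded Dixon's 95% critical share of the whole range. Chance flags about 1 in 20 groups.

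H4c4 in TET2-KO B-2 was lowest in replicate 4, at 7.11 CPM beside 22.7 to 23.4 CPM in the others. H1f4 was lowest in the same library, at 8.94 CPM beside 28.1 to 31.3 CPM. H1f2 in TET2-KO B-2 was lowest in replicate 1, at 26.9 CPM beside 30.6 to 31.3 CPM. H1f3 in WT B-1a was lowest in replicate 1, at 2.92 CPM beside 4.77 to 4.97 CPM. H2ac6 in TET2-KO B-1a was highest in replicate 2, at 6.62 CPM beside 3.00 to 3.09 CPM. No cause of these values was tested.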

How the results depend on the processing

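For the comparisons over many genes, the summed level and its correlation with Mki67, 155 of 163 values under alternatives were classed as unchanged. For a count of histone genes called this means the same count, and for a summed level a move of less than 1 pooled SD. By that rule a summed level can be classed as unchanged though its sign turns, as in B-1b and B-2. For the correlation, unchanged means a value within the range of -0.469 to -0.325 seen as single libraries were left out. Most of the 155 were counts of 0 called that stayed at 0, which says little about stability. Between TET2-KO B-1a and B-2 the main count of 0 histone genes called became 1 under DESeq2 (H2ac6), without the low-count filter (H1f3) and with the replicate block (H2ac6, log2 fold change -1.17, edgeR adjusted p = 0.0209). The replicate block changed no other call of a histone gene, and the same-numbered libraries of B-1a and B-2 correlated at 0.0846 to 0.501. The correlation with Mki67, -0.39, became -0.013 within B-1a, -0.65 within B-1b, -0.48 without WT 1 and WT 2, -0.48 without the 2 libraries farthest from the median and -0.48 without TET2-KO 4, an alternative chosen after seeing the data. For named genes, H2bc4 turned to 0.11 in B-1b and 0.41 in B-2 without WT 1 and WT 2, with a range of -1.34 to 0.41 in B-2 as single libraries were left out, where WT library 1 alone turned it. Mki67 turned to -0.20 in B-1b without WT 1 and WT 2 and ranged from -0.28 to 0.37 there without single libraries; in B-2 it was 0.012 under DESeq2, 0.038 with RLE size factors and 0.44 with the replicate block, and -0.25 to 0.24 without single libraries. None of these passed the threshold, and the cause was not tested.

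The subset calls rested on the TET2-KO libraries. In the additive fit to all 21 libraries none was kept, with edgeR adjusted p of 0.0677 for H1f0, 0.0792 for Ccne1, 0.0890 for H2az1, 0.0968 for Cdt1, 0.104 for Nap1l1 and 0.120 for Nasp between B-1a and B-2, and 0.181 for Ccne1 and 0.203 for H1f0 between B-1b and B-2. Nap1l1 lost its call without any of 9 of the 11 libraries (edgeR adjusted p up to 0.166) and with RLE size factors (0.0753), Nasp without TET2-KO B-2 1 or B-1a 2 (0.0517 and 0.0750), and H1f0 in B-1b against B-2 without the low-count filter (0.0578) or any of 5 libraries (up to 0.109). Counts over all genes moved by more than 1.5 times: 7 in B-1a by genotype became 186 under DESeq2, 318 without the filter, 48 with the replicate block, 2 without TET2-KO 4 and 0 without WT 1 and WT 2 or without immunoglobulin genes. The 0 in B-1b and 0 in B-2 became 60 and 169 under DESeq2 and 131 and 167 without the filter. In the interaction they became 1 and 144. Between TET2-KO subsets 1080, 399 and 38 became 3478, 2872 and 141 under DESeq2, 1699, 870 and 123 without the filter, 1638, 667 and 103 with the block and 22, 0 and 0 in the additive fit, and the 38 became 3 without immunoglobulin genes. With 40 members under 10 counts per library, depth limits what could be detected for them.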

Other observations

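Single members were also set against Mki67 over the 21 libraries, as a description without a p. H2ac25 had r = -0.54 (rho = -0.63), H1f4 -0.41 (rho = -0.60), H4c3 -0.36 (rho = -0.48) and H4c9 -0.28 (rho = -0.26). H2bc4 had -0.22 (rho = -0.30), H1f2 -0.19 (rho = -0.33), H3c6 -0.07 (rho = -0.17), H1f3 -0.04 (rho = -0.24) and H2ac6 -0.02 (rho = -0.09). Every one of these values was below 0. The points share libraries and scaling.

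Of the divergent pairs, H2ac8 and H2bc8 start 175 bases apart and had means of 5.67 and 6.63 CPM per kilobase, and their CPM went with r = 0.28 (rho = 0.23) over 21 libraries. H2ac25 had 3.85 CPM per kilobase and its partner H2bc26 0.595. By chromosome, the 53 members on chromosome 13 held 88.3% of the histone counts, the 3 on chromosome 11 held 6.55%, the 10 on chromosome 3 held 4.34% and H4c16 on chromosome 6 held 0.774%. These pairs were chosen after their values were seen.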
